A study of Mus musculus with 32 samples.

Results

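The 10 genes described here encode enzymes of glutathione synthesis and recycling, of peroxide removal and of the NRF2 response, and were measured in mouse liver among 20076 genes of a count table. They were chosen by name from their known roles: Gclc, Gclm and Gss for synthesis, Gsr for recycling, Gpx1, Gpx4 and Cat for peroxide removal, and Txnrd1, Nqo1 and Hmox1 as NRF2 targets. Glutathione transferases were not part of the set. The choice uses no threshold on a measured value.

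The livers came from male C57BL/6J mice that lacked Acadm, the gene of medium-chain acyl-CoA dehydrogenase (MCAD-KO, here KO), and from their wild-type littermates (WT). MCAD opens the oxidation of medium-chain fatty acids in mitochondria, and the line had been backcrossed to this strain, with the deletion present in every cell rather than in liver alone. Both genotypes received a control diet low in fat (LF) or a semisynthetic diet rich in fat (HF). After 6 weeks some mice went 16 h without food (fasted) and the others kept theirs (fed). This gave 8 groups of 4 mice, sampled as young adults (the labels list ages from 7.5 to 16 with no unit). The study asked how the liver of MCAD-deficient mice copes with fasting, and the comparisons below ask what fasting, diet and genotype each did to the transcripts of the antioxidant enzymes.

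Glutathione is the main small thiol of the liver cell. Glutamate-cysteine ligase, made of a catalytic subunit (Gclc) and a modifier subunit (Gclm), joins glutamate to cysteine, and glutathione synthetase (Gss) adds glycine. Glutathione peroxidases spend glutathione on peroxides and glutathione reductase (Gsr) returns it to its reduced form with NADPH. NRF2 is a transcription factor that the adaptor KEAP1 marks for degradation in unstressed cells. When KEAP1 is modified by oxidants or electrophiles, NRF2 accumulates, pairs with a small MAF protein and binds antioxidant response elements near genes such as Nqo1, Hmox1, Txnrd1, Gclc and Gclm.

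Libraries of the 3′ ends of transcripts held between 2031053 and 4292200 counts per mouse. The Acadm transcript had 26 to 94 counts in the 15 KO mice used and 566 to 2752 counts in the 15 WT mice used, which do not overlap. Of the 32 mice, 2 were left out. KO HF fasted replicate 4 had 36080 CPM (counts scaled to a library of 1000000, with library sizes adjusted by the trimmed mean of M-values) summed over 12 heart markers against 0 to 233.5 CPM in the 30 mice used, and 955 CPM over 10 hepatocyte markers against 48790 to 78490 CPM. WT LF fed replicate 2 had 1431 CPM over 10 stellate cell markers against 415.4 to 691.5 CPM, and 336.1 CPM over 9 bile duct markers against 50.32 to 138.1 CPM. The 3 WT LF fed mice that remain were all sequenced in lane 8, whereas the other groups had mice in lanes 7 and 8. WT HF fasted replicate 2 had 17250 CPM over 11 acinar pancreas markers, where the median of the 30 mice was 22.36 CPM, and KO HF fed replicate 1 had 2547 CPM over these markers and the highest heart sum of the 30 mice (233.5 CPM).

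The promoter sequences of 3 of the genes are shown because NRF2 acts through a short element in front of its target genes. The antioxidant response element core was searched as TGACNNNGC on both strands of 300-base windows (250 bases before and 50 after each annotated start, RefSeq, GRCm38.p6). Of 32851 such windows in the genome, 12.4% held it. Windows of 7 of the 10 genes were at hand, with more than 1 window each for Gpx4 and Txnrd1. The core was found in the window of Gclm and in 1 of the 3 windows of Txnrd1. The 12.4% is a share of windows, so it cannot be set against a share of the 7 genes. The AP-1 site TGANTCA (in 7.81% of all windows) and the E-box CACGTG (in 7.15%) were not found in any window of the 7 genes. The 250 bases before the start are printed below from 5′ to 3′ on the coding strand, with the core in capitals as it reads on this strand, which is its reverse complement. The Gclm sequence is chr3:122245307-122245556 on the plus strand, with its core from position -134 relative to the start. The Txnrd1 sequence is chr10:82858956-82859205 on the plus strand, 1 of 3 annotated starts of this gene, with its core from position -92. The Nqo1 sequence is chr8:107403206-107403455 on the minus strand and holds no match, which says only that these letters are absent from this window.
Gclm: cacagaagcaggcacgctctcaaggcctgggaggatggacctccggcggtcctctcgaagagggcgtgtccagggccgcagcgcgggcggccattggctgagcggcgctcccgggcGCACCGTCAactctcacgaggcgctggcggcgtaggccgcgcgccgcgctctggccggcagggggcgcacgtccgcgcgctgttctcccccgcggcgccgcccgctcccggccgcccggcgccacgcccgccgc
Txnrd1: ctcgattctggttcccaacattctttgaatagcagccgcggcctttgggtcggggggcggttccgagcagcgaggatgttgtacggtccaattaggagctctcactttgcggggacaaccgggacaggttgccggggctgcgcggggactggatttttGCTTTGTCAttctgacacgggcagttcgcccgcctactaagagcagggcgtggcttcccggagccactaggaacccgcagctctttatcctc
Nqo1: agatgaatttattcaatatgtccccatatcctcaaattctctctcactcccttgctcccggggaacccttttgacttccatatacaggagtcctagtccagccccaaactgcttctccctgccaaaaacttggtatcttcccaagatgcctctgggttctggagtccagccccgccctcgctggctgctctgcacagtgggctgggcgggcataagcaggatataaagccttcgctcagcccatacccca

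Of the 10 genes, 8 had enough counts to be tested. Gpx4, which reduces lipid peroxides in membranes, was listed at 0 to 7 counts in each of the 30 mice, with 10 mice at 0. The low values of Gpx4 cannot be read as its level: of the 496 stretches of 50 bases (the read length) in the last 500 bases of its transcripts, 446 (89.9%) also occur on the same strand in the transcript of Gpx4-ps2, a near-identical processed copy, and a read that falls there cannot be assigned to either. Hmox1, the inducible heme oxygenase, was listed at 0 to 4 counts, with 15 of 30 mice at 0. A count of 0 allows up to 3 counts, or between 0.699 and 1.48 CPM depending on the library, and covers counting error only. For Hmox1, no 50-base stretch of its 3′ end was shared with another transcript, and a difference between groups was not detectable at this depth.

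**Figure D1:**
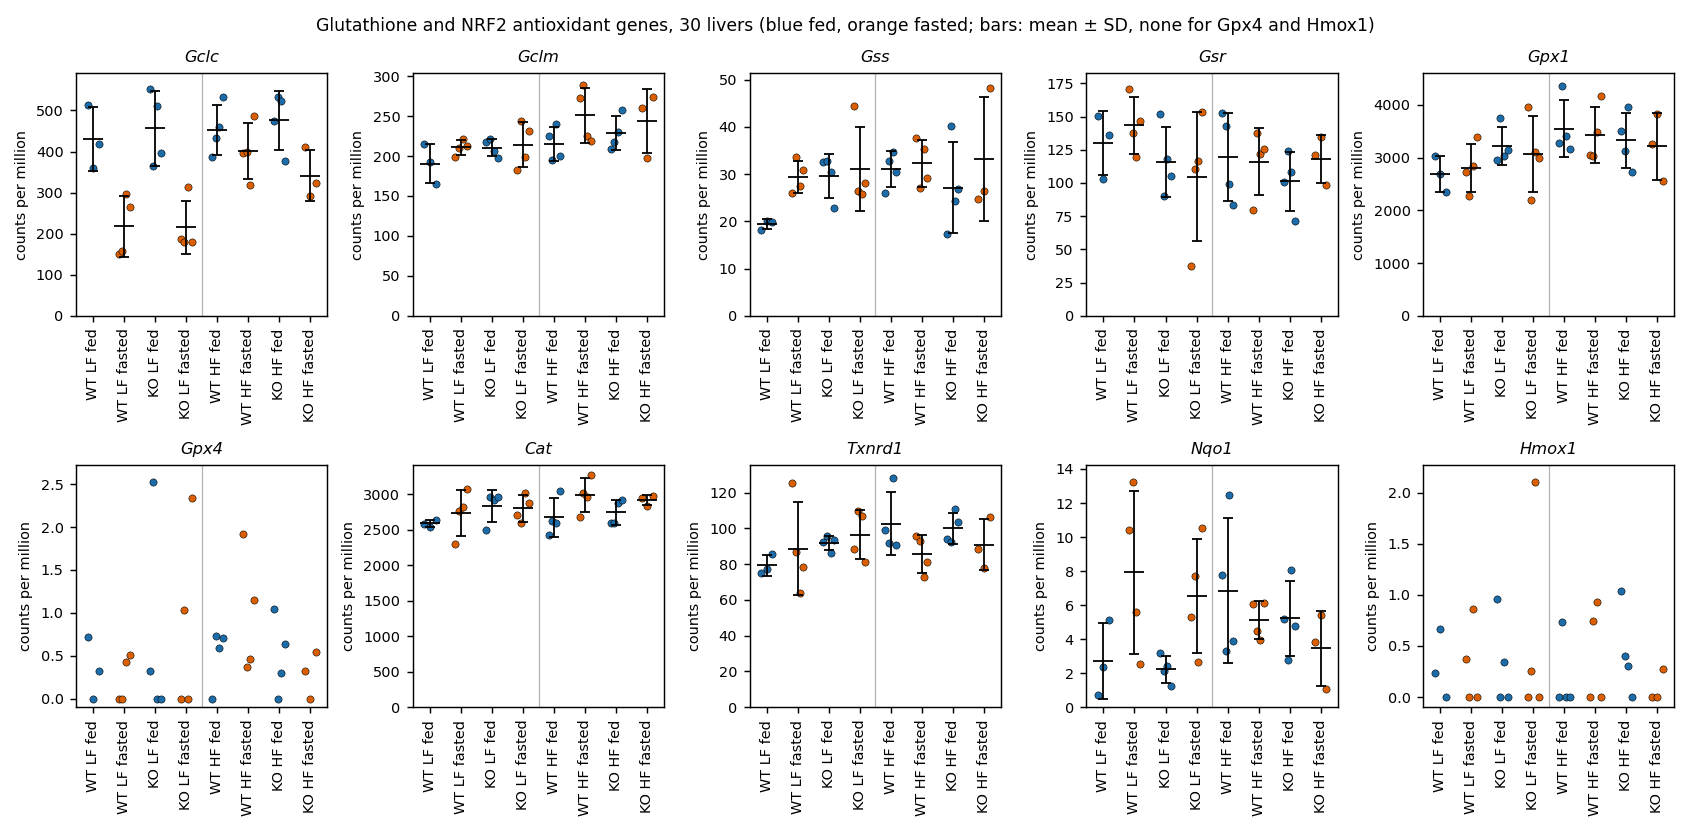
CPM of the 10 genes (vertical axis, linear) in each of the 30 livers, arranged by the 8 groups (horizontal axis); blue points are fed and orange points fasted mice, and bars give the mean ± SD of each group, left out for Gpx4 and Hmox1. In Gclc, the 8 LF fasted livers (151.7 to 313.1 CPM) lie below the 7 LF fed livers (359.1 to 552.8 CPM), while in Cat the 30 livers run from 2296 to 3267 CPM and the groups overlap.

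Fasting lowered Gclc, the catalytic subunit of the ligase that sets the pace of glutathione synthesis. Averaged over the 4 combinations of genotype and diet, Gclc fell by 0.68 on the log2 scale (SE 0.106, 95% interval -0.90 to -0.47, a fold of 0.624), with an adjusted p of 5.74e-06 in edgeR's quasi-likelihood test after Benjamini-Hochberg adjustment over the 11566 genes tested. Of the 8 antioxidant genes tested, 1 passed in this comparison, beside 18.9% of all genes. The median log2 change of the 8 genes was 0.06 and that of all genes was -0.00219. Without KO HF fed replicate 1, which carried acinar and heart markers, it was -0.68 and passed. Single lanes were fitted with a term each for feeding, diet and genotype instead of the 8 groups. Lane 7 held no WT LF fed mouse. In this model the Gclc change was -0.62 within lane 7 (adjusted p = 0.0498, edgeR) and -0.67 within lane 8 (adjusted p = 0.00174, edgeR). All comparisons below draw on the same 30 mice, so the effects within groups share mice with the averages and with each other. In RNA of whole liver, fewer cells of a type and less RNA per cell cannot be told apart.

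The fall of Gclc was found on the LF diet. In WT mice on the LF diet, the fed values were 513.2, 359.1 and 417.3 CPM, and the fasted values were 151.7, 158.1, 296.4 and 264.2 CPM. In KO mice on the LF diet, the fed values were 552.8, 364.1, 511.7 and 396.2 CPM, and the fasted values were 187.1, 180.3, 313.1 and 181.0 CPM. Every LF fasted mouse of either genotype was below every LF fed mouse. The log2 change was -0.98 (SE 0.219, adjusted p = 0.00232, edgeR) in WT mice and -1.09 (SE 0.206, adjusted p = 2.47e-04, edgeR) in KO mice. Gclc was the only gene of the 8 to pass by edgeR in either genotype, beside 7.54% of all genes in WT mice and 13.8% in KO mice. In KO mice DESeq2 called 2 of the 8 genes and limma voom 1. The 2 genes with an unadjusted p under 0.05 there (edgeR) were Gclc and Nqo1. The values of KO replicate 3 and WT replicate 3 stood above those of the other fasted mice of their groups. In the same mice the adipose tissue list had its lowest sums among LF fasted livers (39.99 and 43.02 CPM, where LF fasted livers reached 229.4 CPM and LF fed livers 9.99 CPM). The lipid droplet gene Cidec, which rose by 4.73 on the log2 scale with fasting (SE 0.544, adjusted p = 6.73e-07, edgeR), made up 31.6% of the sum in KO replicate 3 and all of it in WT replicate 3. Of the other adipose genes, Cfd reached 41.0 CPM in both fed and fasted livers, Plin1 reached 0.797 CPM in fed and 7.41 CPM in fasted livers, Adipoq reached 4.17 CPM in fed and 8.58 CPM in fasted livers, and Lep was at or under 0.348 CPM. KO replicate 3 also had the highest sum of the 30 mice over 10 adrenal cortex markers (515.1 CPM, where the median was 229.4 CPM). In WT replicate 3 this sum was 182.8 CPM. The part of the adipose and adrenal markers in the Gclc values was not tested.

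On the HF diet the fed and fasted values of Gclc overlapped. In WT mice on the HF diet, the fed values were 386.7, 432.7, 458.8 and 533.0 CPM, and the fasted values were 396.1, 399.9, 319.5 and 486.0 CPM. In KO mice on the HF diet, the fed values were 473.6, 533.4, 522.8 and 376.0 CPM, and the fasted values were 410.0, 291.0 and 322.7 CPM. The log2 changes were -0.17 (95% interval -0.59 to 0.24, adjusted p = 0.878, edgeR) in WT mice and -0.48 (95% interval -0.93 to -0.03, adjusted p = 0.598, edgeR) in KO mice. None of the 8 genes passed here by edgeR, DESeq2 or limma voom, beside 0.424% of all genes in WT mice and 0.527% in KO mice, and those with an unadjusted p under 0.05 numbered 0 and 1. The difference between the diets in the fasting change of Gclc, tested directly as an interaction averaged over the genotypes, was 0.71 on the log2 scale (SE 0.211, 95% interval 0.28 to 1.13) with an adjusted p of 0.0654 by edgeR, on the far side of the threshold. It passed in 7 of 40 alternatives: by DESeq2 (adjusted p = 0.0437), with no filter and with at least 10 counts in every mouse (adjusted p = 0.0376 and 0.0489, edgeR), with age as a term (adjusted p = 0.0163, edgeR), and in the fits without KO LF fasted replicate 3, WT LF fasted replicate 3 or WT HF fasted replicate 3 (adjusted p = 0.0146, 0.0252 and 0.0490, edgeR). Over the other 33, which include limma voom, lane as a term, the replicate block and both fits with left-out mice put back, it did not pass, and the adjusted p reached 0.676.

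**Figure D2:**
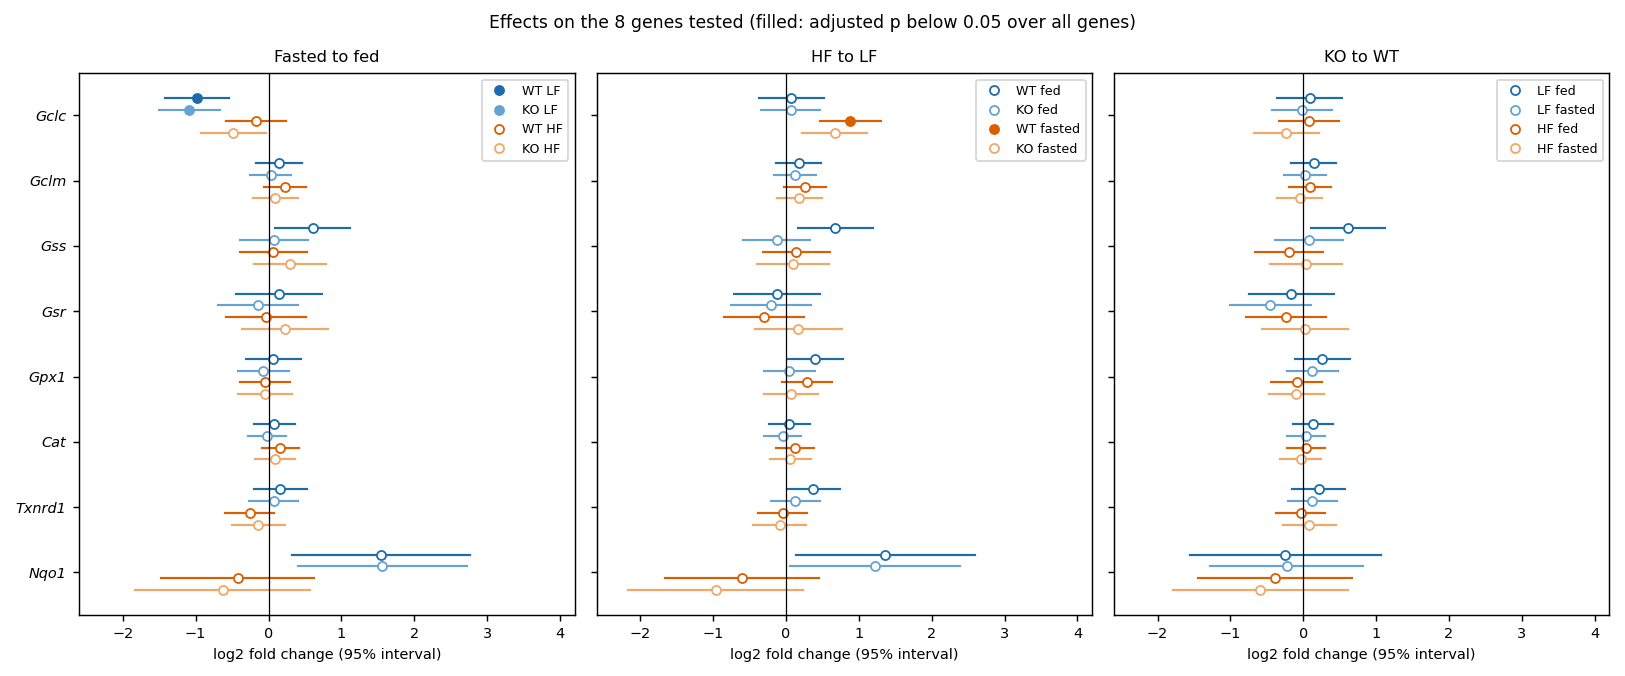
Log2 fold changes (horizontal axis) with 95% intervals for the 8 genes tested, fasted to fed, HF to LF and KO to WT, each within 4 groups of mice set apart by colour; filled points had an adjusted p under 0.05 over all genes. The filled points are those of Gclc: fasting on the LF diet in WT (-0.98) and KO (-1.09), and HF to LF in fasted WT mice (0.88).

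The HF diet raised Gclc on average, and the rise was seen in fasted mice. Averaged over the 4 combinations of genotype and feeding state, Gclc rose by 0.42 on the log2 scale (SE 0.106, 95% interval 0.21 to 0.64, a fold of 1.34, adjusted p = 0.0165, edgeR). It was 1 of the 8 genes to pass, beside 3.49% of all genes. In fasted WT mice the change was 0.88 (SE 0.205, adjusted p = 0.0170, edgeR), where 1 of 8 genes passed beside 1.12% of all genes, and the 4 HF values (319.5 to 486.0 CPM) lay above the 4 LF values (151.7 to 296.4 CPM). In fasted KO mice it was 0.67 (SE 0.219, adjusted p = 0.118, edgeR), where 0 of 8 genes passed by edgeR, DESeq2 or limma voom beside 1.68% of all genes, and 1 had an unadjusted p under 0.05 (edgeR). In that group Gclc of LF replicate 3 (313.1 CPM) lay within the range of the 3 HF mice (291.0 to 410.0 CPM), and without this mouse the change was 0.90 (adjusted p = 0.0195, edgeR). In fed mice the changes were 0.07 in WT (95% interval -0.37 to 0.52) and 0.06 in KO (95% interval -0.35 to 0.47).

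The average diet change of Gclc passed in each of the 30 fits without 1 mouse (0.38 to 0.48, adjusted p from 0.00336 to 0.0464, edgeR). The change within fasted WT mice rested on few mice. In fasted WT mice the adjusted p of Gclc (edgeR) was 0.0505 without HF replicate 2, the library with acinar pancreas markers, and was 0.0843 without HF replicate 4, 0.141 without LF replicate 1 and 0.128 without LF replicate 2. Of 42 alternatives, the average diet change passed in 39. In the lane fits, which had no group terms, it was 0.66 within lane 7 (adjusted p = 0.153, edgeR) and 0.37 within lane 8 (adjusted p = 0.256, edgeR). Both were higher on the HF diet and neither was past the threshold. Without KO HF fed replicate 1 the average was 0.42 and passed, and with the 2 left-out mice put back it was 0.31 (adjusted p = 0.594, edgeR).

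Gclm, the modifier subunit that makes the ligase less sensitive to inhibition by its product, did not pass in any comparison. It ranged from 165.0 to 288.5 CPM with a median of 217.2 CPM over the 30 mice, and its coefficient of variation was 12.8%, where that of Gclc was 32.3%. Its log2 change with fasting was 0.12 (95% interval -0.03 to 0.27, adjusted p = 0.279, edgeR) and with the HF diet 0.18 (95% interval 0.04 to 0.33, adjusted p = 0.185, edgeR). The Gclm values of fasted livers on the LF diet (183.1 to 244.1 CPM) overlapped those of fed livers (165.0 to 220.7 CPM), in the same mice in which Gclc did not overlap. The difference between the 2 subunits was not tested.

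Gss, which adds glycine in glutathione synthesis, had low counts (49 to 179 in each mouse). The 3 WT LF fed mice had 18.22, 20.06 and 19.95 CPM, and the 4 WT LF fasted mice had 26.02, 33.62, 27.53 and 30.81 CPM. The 4 KO LF fed mice had 32.59, 32.80, 30.48 and 22.79 CPM, all above the WT mice of the same condition. WT LF fed replicate 2, the mouse left out, had 62.27 CPM, the highest of all 32 mice, so that the low WT values hold only without it. The average fasting change of Gss was 0.26 on the log2 scale (SE 0.119, adjusted p = 0.133, edgeR). It passed in the fit without KO HF fed replicate 2 (0.32, adjusted p = 0.0474, edgeR) and within lane 8 (0.46, adjusted p = 0.0487, edgeR), whereas within lane 7 it was -0.07 (adjusted p = 0.901, edgeR), and with all 32 mice 0.03 (adjusted p = 0.951, edgeR). The lane fits had no group terms, and lane 7 held none of the 3 low WT LF fed mice, so their values are not like for like. Gss shares 395 exon bases with Acss2 on the opposite strand, and 33 of 1399 of its 3′ stretches of 50 bases (2.36%) also occur in an Acss2 transcript. Whether strand was used in counting is not given in the sources used here, so that reads of Gss and Acss2 in these bases cannot be told apart.

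Glutathione reductase, Gsr, ranged from 37.86 to 170.6 CPM with a median of 120.1 CPM. KO LF fasted replicate 1 had the lowest value, and the next lowest mouse had 71.3 CPM. That library also had the highest erythroid marker sum of the 30 mice (1286 CPM, median 665.8 CPM). Its hepatocyte sum was the lowest of the LF fasted livers (49940 CPM, median 67030 CPM). The part of these markers in its values was not tested. The average change of Gsr was 0.04 with fasting (95% interval -0.24 to 0.33) and -0.11 with the HF diet (95% interval -0.40 to 0.17), and neither passed (adjusted p = 0.880 and 0.780, edgeR).

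The peroxide-removing enzymes Gpx1 and Cat did not pass in any comparison. Gpx1, the cytosolic glutathione peroxidase, ranged from 2190 to 4355 CPM (median 3117 CPM, coefficient of variation 16.95%). Cat, the catalase of peroxisomes, ranged from 2296 to 3267 CPM (median 2825 CPM, coefficient of variation 8.09%). With fasting the log2 change was -0.03 for Gpx1 (95% interval -0.21 to 0.15, adjusted p = 0.888, edgeR) and 0.08 for Cat (95% interval -0.06 to 0.21, adjusted p = 0.484, edgeR). With the HF diet it was 0.20 for Gpx1 (95% interval 0.02 to 0.38, adjusted p = 0.240, edgeR) and 0.05 for Cat (95% interval -0.09 to 0.18, adjusted p = 0.818, edgeR). The intervals of Cat leave out any change beyond 0.21 on the log2 scale in either average.

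Txnrd1, the cytosolic thioredoxin reductase, ranged from 64.10 to 128.4 CPM with a median of 92.18 CPM. Its fasting change was -0.04 (95% interval -0.22 to 0.13, adjusted p = 0.804, edgeR) and its diet change 0.09 (95% interval -0.08 to 0.27, adjusted p = 0.700, edgeR). The fed LF values (74.79 to 95.44 CPM) lay within the fasted LF values (64.10 to 125.3 CPM).

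Nqo1, the quinone reductase that is often used as a readout of NRF2 in liver, was scarce, with 3 to 42 counts in each mouse. On the LF diet the fed values were 0.719, 2.34 and 5.15 CPM in WT and 3.20, 2.10, 2.40 and 1.25 CPM in KO mice. The LF fasted values were 10.4, 13.2, 5.59 and 2.53 CPM in WT and 5.28, 7.71, 2.63 and 10.5 CPM in KO mice. Of the 8 LF fasted mice, 6 were above every LF fed mouse, and the ranges overlapped. On the HF diet the fed values were 7.76, 3.29, 12.48 and 3.90 CPM in WT and 5.21, 2.79, 8.09 and 4.80 CPM in KO mice. The HF fasted values were 6.04, 4.46, 3.95 and 6.15 CPM in WT and 3.86, 5.43 and 1.08 CPM in KO mice. Here the ranges of fed (2.79 to 12.48 CPM) and fasted mice (1.08 to 6.15 CPM) overlapped.

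The log2 change of Nqo1 with fasting was 1.54 in WT (95% interval 0.32 to 2.77, adjusted p = 0.125, edgeR) and 1.56 in KO mice (95% interval 0.40 to 2.72, adjusted p = 0.0648, edgeR) on the LF diet, and -0.43 (95% interval -1.48 to 0.63) and -0.63 (95% interval -1.84 to 0.57) on the HF diet. None of the 4 changes passed by edgeR. For fasting in KO mice on the LF diet DESeq2 called 2 of the 8 genes, where edgeR called 1. The difference of the Nqo1 fasting change between the diets was -2.08 (SE 0.575, adjusted p = 0.0394, edgeR). Nqo1 was the 1 gene of 8 to pass in this comparison by edgeR, beside 2.46% of all genes. The call was not stable. The adjusted p was 0.0725 by limma voom, 0.0714 with lane as a term (edgeR) and 0.0136 by DESeq2. It missed the threshold without any 1 of 17 of the 30 mice, with a change between -2.50 and -1.83 and an adjusted p between 0.0195 and 0.0927 over all 30 omissions (edgeR). With all 32 mice the difference was -0.36 (adjusted p = 0.919, edgeR).

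Genotype made no difference that could be detected in the 8 genes. The average KO to WT changes ran from -0.36 (Nqo1) to 0.13 (Gss) on the log2 scale, and 0 of 8 genes passed, beside 0.00865% of all genes, which is Acadm alone. Over the 8 genes none had an unadjusted p under 0.05, and DESeq2 and limma voom called none of them either. For Gclc the average was -0.02 (95% interval -0.24 to 0.19), for Gclm 0.05 (95% interval -0.10 to 0.20), for Cat 0.04 (95% interval -0.09 to 0.18) and for Gpx1 0.05 (95% interval -0.13 to 0.23). For Nqo1 it was -0.36 (95% interval -0.94 to 0.22), a wide interval at these counts. Within the 4 conditions 0 of 8 genes passed in each by edgeR, DESeq2 or limma voom, again beside 0.00865% of all genes in each. The only unadjusted p under 0.05 was that of Gss in LF fed mice (0.61, 95% interval 0.10 to 1.12, unadjusted p = 0.0207, adjusted p = 1.0, edgeR), the comparison with the 3 low WT mice described above. The fasting change did not pass as different between the genotypes for any of the 8 genes by edgeR, DESeq2 or limma voom (0 of 8, beside 0% of all genes), and neither did the diet change (0 of 8, beside 0% of all genes). None of the 8 genes had an unadjusted p under 0.05 in either test (edgeR), where 573 and 397 of the 11566 genes did, and DESeq2 and limma voom also called 0 of all genes in both. The difference between the genotypes in the fasting change of Gclc was -0.21 (95% interval -0.63 to 0.22).

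In fed mice, 0 of 8 genes passed for diet by edgeR, DESeq2 or limma voom in WT (beside 0.0778% of all genes) and in KO mice (beside 0.00865%, with 1 of 8 at an unadjusted p under 0.05). In fed WT mice 4 of the 8 genes (beside 5.22% of all genes, and 7.26% in KO mice) had an unadjusted p under 0.05 and were higher on the HF diet: Gss (0.68), Nqo1 (1.37), Gpx1 (0.40) and Txnrd1 (0.37), with adjusted p-values from 0.727 to 0.933 by edgeR. These 4 values share the 3 WT LF fed mice, all of lane 8. The mouse of that group that was left out was above all 30 others in Gss, Txnrd1 and Nqo1.

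The genes around the 10 enzymes were taken from 8 lists. Some genes, such as Srxn1 and Txn1, stand in more than 1 list and are counted in each. Beside their counts stand 18.9% of all genes that passed with fasting and 3.49% that passed with diet. In the list of NRF2 regulators 2 of 13 genes passed with fasting (15.4%), a share below that of all genes. Sqstm1, the autophagy adaptor that binds KEAP1, rose by 0.32 (312.1 ± 43.32 CPM in fed and 387.1 ± 52.80 CPM in fasted mice, mean ± SD, n = 15 each, adjusted p = 0.00368, edgeR). Bach2, a repressor related to the NRF2 competitor BACH1, fell by 1.11 on the log2 scale (adjusted p = 7.18e-04, edgeR). The transcripts of NRF2 itself and of KEAP1 showed changes of -0.00223 for Nfe2l2 (adjusted p = 0.992, edgeR) and -0.02 for Keap1 (adjusted p = 0.899, edgeR). These are transcripts, and NRF2 is set mainly through its protein, which was not measured here. No NRF2 regulator passed for diet or genotype by edgeR, DESeq2 or limma voom, and 2 and 1 of them had an unadjusted p under 0.05 (edgeR).

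Of 25 other NRF2 targets tested, 14 passed with fasting (56%), 6 higher and 8 lower, with a median log2 change of -0.05. By edgeR 11 passed in WT and 9 in KO mice on the LF diet, and 2 and 0 on the HF diet. Aldh3a2, a fatty aldehyde dehydrogenase, rose by 1.39 (adjusted p = 3.09e-07, edgeR), the conjugate exporter Abcc3 by 0.69 (adjusted p = 3.70e-06, edgeR) and the epoxide hydrolase Ephx1 by 0.64 (adjusted p = 5.22e-05, edgeR). Pgd (-1.09), Me1 (-1.08) and Taldo1 (-0.43) were lower, and these encode an NADPH-forming enzyme of the pentose phosphate pathway, malic enzyme and transaldolase. For diet, 4 of 25 passed (16%): Abcc3 (0.92), Aldh3a2 (0.79) and Aox1 (0.46) were higher on the HF diet and Lpin1 (-1.18) lower.

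Among genes of glutathione turnover and transport, 6 of 17 passed with fasting (35.3%), 2 higher and 4 lower (median -0.06). Oplah, which opens 5-oxoproline to glutamate in the breakdown of glutathione, rose by 0.98 (28.05 ± 5.19 CPM in fed and 58.65 ± 24.94 CPM in fasted mice, adjusted p = 2.22e-08, edgeR). Chac1 (-1.27) and Chac2 (-0.58), which cleave glutathione inside the cell, were lower, as was the aminopeptidase Lap3 (-0.30). Chac1 was scarce and spread widely, at 5.958 ± 3.075 CPM in fed and 2.468 ± 2.737 CPM in fasted mice. Slc25a39, which carries glutathione into mitochondria, was higher (0.29, adjusted p = 0.0166, edgeR). No gene of this list passed for diet by edgeR or limma voom, where 6 had an unadjusted p under 0.05 (edgeR) and DESeq2 called 2.

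Of 12 thioredoxin and glutaredoxin genes, 4 passed with fasting (33.3%). Glrx, which uses glutathione to reduce protein disulfides, rose by 1.16 (47.34 ± 10.04 CPM in fed and 117.1 ± 47.04 CPM in fasted mice, adjusted p = 4.25e-11, edgeR), and its change on the HF diet was -0.47 (adjusted p = 0.00425, edgeR). Srxn1 (0.58), which repairs overoxidised peroxiredoxins, and Glrx5 (0.26) were higher, and Txn1 (-0.37), the substrate of Txnrd1, was lower. Of 15 other peroxidases, superoxide dismutases and methionine sulfoxide reductases, 0 passed with fasting by edgeR (5 had an unadjusted p under 0.05, and DESeq2 and limma voom called 1 each) and 1 with diet, Msra (0.27).

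Cat sits in peroxisomes, and 12 of 16 genes of peroxisome oxidases and assembly passed with fasting (75%, beside 18.9% of all genes), 8 higher and 4 lower (median 0.20). By edgeR 7 passed in WT and 10 in KO mice on the LF diet, and 0 in either genotype on the HF diet. There 7 in WT and 4 in KO mice had an unadjusted p under 0.05 (edgeR), and DESeq2 called 2 and 0. Pex11a, a peroxisome division factor, rose by 1.79 (adjusted p = 7.46e-08, edgeR). Of the hydrogen peroxide-forming oxidases, Acox2 (0.57) was higher and Hao1 (-0.64), Paox (-1.73) and Uox (-0.38) were lower, while the interval of Cat stayed between -0.06 and 0.21. The difference between Cat and these genes was not tested. Of 16 genes of selenoproteins, the class of Gpx1, Gpx4 and Txnrd1, and of their synthesis, 5 passed with fasting (31.2%). Dio1 (0.30) and Trnau1ap (0.50) were higher, and Selenok (-0.57), Selenos (-0.31) and Selenot (-0.26) lower. Dio1 was also higher on the HF diet (0.61). Of 10 genes of heme breakdown and iron storage, 1 passed with fasting (10%), the hemoglobin scavenger haptoglobin, Hp (0.87). In the average of KO to WT, 0 genes of these 8 lists passed by edgeR, DESeq2 or limma voom. Of 124 list entries tested, with a gene counted in each of its lists, 4 had an unadjusted p under 0.05 (edgeR).

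**Figure D3:**
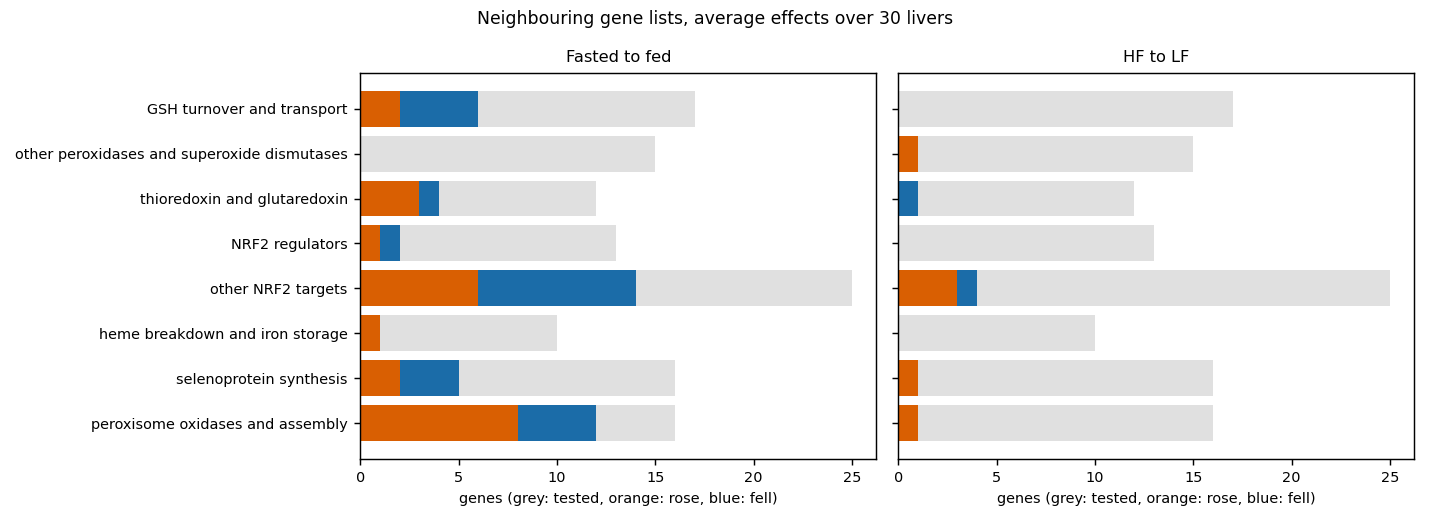
Number of genes (horizontal axis) of the 8 neighbouring lists that were tested (grey), higher (orange) and lower (blue) at an adjusted p under 0.05, with fasting (left) and on the HF diet (right), as averages over the 30 livers. With fasting the counts reach 14 of 25 other NRF2 targets and 12 of 16 peroxisome genes, and with diet at most 4 of 25.

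The 2 samples that were left out differed from the 30 livers used in several of the 10 genes. KO HF fasted replicate 4, with heart markers, had 19.25 CPM of Gclc against 153.1 to 557.5 CPM in the 30 mice used (scaled together with all 32), 188.2 CPM of Gpx1 against 2211 to 4390 CPM and 339.5 CPM of Cat against 2318 to 3295 CPM. It was also below all 30 livers used in Gclm (84.95 CPM), Gss (7.64 CPM), Gsr (36.06 CPM) and Txnrd1 (50.42 CPM). Its Nqo1 was the highest of all 32 mice at 48.59 CPM, from 159 counts. With 955 CPM over the hepatocyte markers, its values cannot be read as those of a liver. WT LF fed replicate 2 had 507.2 CPM of Gclc, inside the range of its group (361.9 to 517.5 CPM), and 1252 CPM of Cat, below all 30 mice.

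**Figure D4:**
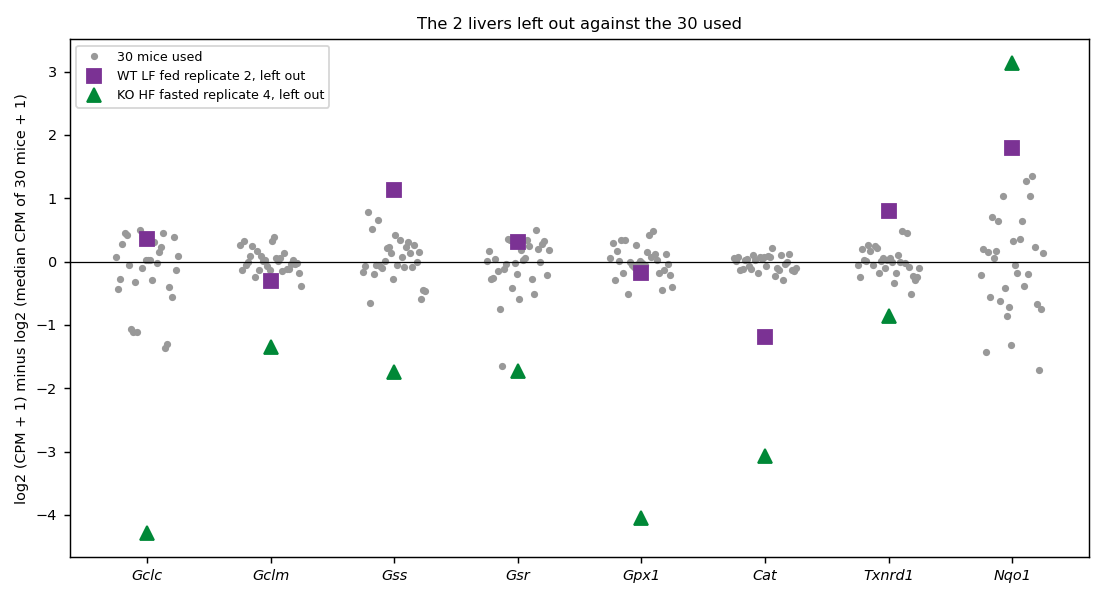
Log2 of CPM plus 1, less the same value for the median of the 30 mice used (vertical axis), for the 8 genes tested (horizontal axis); grey points are the 30 mice used, the square is WT LF fed replicate 2 and the triangle KO HF fasted replicate 4. The triangle lies below the other mice in Gclc (19.25 CPM), Gpx1 (188.2 CPM) and Cat (339.5 CPM) and above them in Nqo1 (48.59 CPM), and the square lies above the 30 mice in Gss (62.27 CPM) and Txnrd1 (161.8 CPM).

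Some markers of other cells moved with the same comparisons. With fasting, 3 of 10 stellate cell markers (Col3a1, Col1a2 and Lrat), 1 of 12 macrophage markers (Adgre1), 2 of 6 erythroid markers (Alas2 and Hbb-bt), 1 of 5 bile duct markers (Spp1, -0.51) and 1 of 8 adrenal cortex markers (Fdx1) were lower, and 1 of 10 endothelial cell markers (Lyve1, 0.54) was higher. On the HF diet 2 of 10 stellate cell markers (Col3a1 and Col1a2), 1 of 5 bile duct markers (Spp1, 0.68) and 1 of 3 neutrophil markers (Lcn2, 1.61) were higher. Of 10 hepatocyte markers, 4 were higher and 1 lower with fasting, and 1 was higher and 1 lower on the HF diet. Beside these counts, 18.9% of all genes passed with fasting and 3.49% with diet. Spp1, Col3a1 and Col1a2 passed in both averages. Lrat, Adgre1, Alas2, Hbb-bt, Fdx1 and Lyve1 passed with fasting only, and Lcn2 with diet only. The summed stellate cell markers ran from 469.6 to 609.2 CPM in LF fed, 415.4 to 547.2 CPM in LF fasted, 458.9 to 691.5 CPM in HF fed and 472.3 to 585.0 CPM in HF fasted livers. Their part in the change of Gclc was not tested.

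Over the 30 mice, no pair among the 10 genes passed as varying together within groups. Pairs with Gpx4 (0 to 7 counts) or Hmox1 (0 to 4 counts) were in the adjustment, but at these counts they cannot show whether the genes vary together. Of 45 pairs, 0 had an adjusted p under 0.05 by Pearson's r or Spearman's rho (permutation within groups, 100000 draws, two-sided, Benjamini-Hochberg adjustment), and 1 had an unadjusted p under 0.05 by Pearson's r and 3 by Spearman's rho. The pair with both was Gclm and Gpx1, with Pearson's r = -0.50 (permutation p = 0.0249, adjusted p = 0.611) and Spearman's rho = -0.49 (permutation p = 0.0288, adjusted p = 0.677). Without the 2 mice farthest from the median of Gclm r was -0.37, and it was -0.71 within lane 7 (16 mice) and -0.19 within lane 8 (14 mice).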

How the data were processed

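RNA of 32 male mice (8 groups, 4 mice each), reported as liver, was measured as 3′ mRNA reads of 50 bases. The authors mapped the reads to GRCm38 with HISAT 0.1.5 (SAMtools 1.2) and counted them per gene with HTSeq 0.6.1p1 in union mode, and deposited the raw count of every gene and mouse with no normalization. Tool versions are from the submitters' processing notes. The methods name a later annotation release than the label of the table, and the strand setting of the counting is not given in the sources used here. Gene symbols came from GENCODE (19913 of 20076 genes matched, the rest holding 0.125% of counts). Totals ran from 2031053 to 4292200 counts per mouse, which limits scarce genes such as Nqo1 and Hmox1 to at most 42 counts in the 30 mice used. Reads of Gpx4 that are shared with Gpx4-ps2 cannot be assigned at any depth. Floors and intervals from counts cover counting error only.

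The analysis used 30 mice in a model with 1 term for each of the 8 groups (edgeR 4.0.16, TMM normalization, filterByExpr, robust quasi-likelihood F test, R 4.3.3, called at a Benjamini-Hochberg adjusted p under 0.05 over 11566 genes). DESeq2 1.42.0, limma 3.58.1 voom, other normalizations and filters, lane, age and replicate number as terms, single lanes, all 32 mice, 31 mice, and the omission of each mouse were alternatives. The single-lane fits had a term each for feeding, diet and genotype and none for the groups. The scripts were tested on simulated data. The labels place 16 mice in lane 7 and 16 in lane 8, whereas the methods describe smaller pools. Pairing of mice by replicate number was not detected, which does not show that there was none. Deviations of same-numbered mice had a median correlation of 0.00603 over 98 pairs, and those of other-numbered mice -0.0021 over 295 pairs. No 2 libraries of a group agreed within sampling noise (smallest chi-square per gene 3.93 over 42 pairs). The 10 genes, the gene lists and the mice left out were chosen with earlier results of these data known. For each average effect, genes of the 8 further lists are named if past the threshold, up to 3 that rose and up to 3 that fell per list, in order of p, except 1 gene that is not reported here. Aside from this rule, Nfe2l2, Keap1 and marker genes were named after their values were seen. Promoter sequences are from RefSeq (GRCm38.p6).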

Additional observations from a re-analysis of the deposited data

Results flagged for a closer look

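Within the groups of 4 mice, 60 sets of values of the 10 genes were screened for a single mouse far from the other 3 (Dixon's test at the 95% level), and 6 were found. Chance flags about 1 in 20 such groups. The Gclc value of KO LF fasted replicate 3 (313.1 CPM) stood above the other 3 mice (180.3 to 187.1 CPM), and the call for HF against LF in fasted KO mice changes without it, as given above. The Gss value of KO LF fasted replicate 1, whose marker sums are given above, was 44.46 CPM against 25.78 to 28.09 CPM. The Cat value of KO LF fed replicate 1 was 2493 CPM against 2914 to 2964 CPM. The other 3 rest on 2 to 6 counts: Gpx4 in KO LF fed replicate 2 (2.523 CPM), Hmox1 in KO LF fasted replicate 3 (2.105 CPM) and Hmox1 in WT HF fed replicate 2 (0.7303 CPM).

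The fasting change of Nqo1 passed as different between the diets, with a log2 difference of -2.078 (adjusted p = 0.0394, edgeR's quasi-likelihood test). Nqo1 had only 3 to 42 counts in each mouse, and the call was not stable, as given above. It missed the threshold by limma voom, with lane as a term and with the left-out mice put back. It also missed the threshold in 17 of the fits that each left out a single mouse. None of the fasting changes of Nqo1 within a genotype and diet passed by edgeR.

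In the 2 mice that no comparison used, 4 values lay above all 30 other mice: WT LF fed replicate 2 in Gss (62.27 CPM), Txnrd1 (161.8 CPM) and Nqo1 (18.46 CPM), and KO HF fasted replicate 4 in Nqo1 (48.59 CPM).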

How the results depend on the processing

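No called change reversed its direction under any alternative. Of the 8 genes tested, the number that passed was as follows. For the average fasting effect it was 1, with 2 in lane 8 only and 1 to 2 over the omission of each mouse (2 without KO HF fed replicate 2). For the average diet effect it was 1, with 0 in the fit of all 32 mice, in lane 7 only and in lane 8 only. For fasting in KO LF mice it was 1, with 2 by DESeq2, 0 with all 32 mice and 1 to 2 over omissions. For fasting in WT LF mice it was 1, with 0 with all 32 mice. For HF to LF it was 0 in fasted KO mice (0 to 1 over omissions) and 1 in fasted WT mice (0 with all 32 mice, 0 to 1 over omissions). For the difference of the fasting effect between diets it was 1, with 2 with no filter, by DESeq2 and with age as a term, 0 by limma voom, with all 32 mice, with 31 mice, with lane as a term and with the replicate block, and 0 to 2 over omissions. The replicate block, in which replicate numbers serve as a paired term, gave Nqo1 a difference of -2.08 with an adjusted p of 0.0603 (edgeR), and changed no other call. The average fasting change of Gclc ran from -0.79 to -0.62 over all 42 alternatives and passed in each. Over all genes, the average fasting effect had 2187 calls, 344 in lane 7 only and 1449 in lane 8 only, the average diet effect 404 calls, 81 with all 32 mice, 53 in lane 7 only and 85 in lane 8 only, and the average KO to WT effect 1 call, with 2 without WT HF fed replicate 2. Single lanes hold fewer mice and were fitted without group terms, and otherwise the cause was not tested. Depth limits Nqo1 and Hmox1, and the copy Gpx4-ps2 limits Gpx4 whatever the depth.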
